A study of Mus musculus with 17 samples.

Results

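The genes described here repair DNA double-strand breaks. They were chosen by symbol, 9 genes of the 20328 listed in the RNA-seq table: Xrcc6, Xrcc5, Prkdc, Lig4, Xrcc4, Brca1, Brca2, Atm and Trp53bp1. All 9 had a row in the RNA-seq table and in the scRNA-seq table, and all 9 passed the filter on low counts. The H3K27ac table listed regions for Xrcc4, Prkdc, Trp53bp1 and Brca2, and the ATAC-seq table listed regions for Xrcc5 and Brca1. No region of Xrcc6, Lig4 or Atm was in either table.

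The libraries came from brain tissue of female wild-type ICR mice in 3 groups, called sham, 6-OHDA and 6-OHDA+NDST3. 6-OHDA is a neurotoxin taken up by dopaminergic neurons, and it was injected at 10 µg per µl into the substantia nigra of 1 side when the mice were 8 weeks old, which gives a toxin model of Parkinson's disease. The 6-OHDA+NDST3 mice received 2 µl of an AAV9 vector with human NDST3 under the ubiquitous CMV promoter into the same site 5 days later, and the 6-OHDA mice received saline. Bulk RNA-seq had 2 sham, 1 6-OHDA and 2 6-OHDA+NDST3 libraries, CUT&RUN for H3K27ac had 2 libraries per group pooled by the authors into 1 column, ATAC-seq had 1 library per group, and scRNA-seq means were used for 1 6-OHDA and 1 6-OHDA+NDST3 library. The human NDST3 transcript was not analysed here. The labels name the tissue only as brain and do not say whether a library holds 1 animal or several.

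A double-strand break is mended along either of 2 main routes. In non-homologous end joining, the ring of Xrcc6 (Ku70) and Xrcc5 (Ku80) slides onto each broken end and recruits the kinase Prkdc (the catalytic subunit of DNA-PK), after which Lig4, held by its scaffold Xrcc4, seals the ends. In homologous recombination, Brca1 promotes trimming of the ends and Brca2 acts on the exposed strand in the search for a template, so that a sister chromatid can be copied. The kinase Atm signals the break to the rest of the cell, and Trp53bp1 (p53-binding protein 1) protects ends from trimming and so counteracts Brca1. Neurons do not divide and have no sister chromatid, and they depend mainly on end joining, whereas Brca1 and Brca2 are mostly transcribed in dividing cells.

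The genes lie on 9 different chromosomes of GRCm38, the mouse assembly also called mm10. The gene with the largest fall, Trp53bp1 (NCBI Gene 27223), spans chr2:121194835-121296354 on the minus strand. The members with the largest rises, Brca1 (NCBI Gene 12189, chr11:101488761-101551955) and Xrcc4 (NCBI Gene 108138, chr13:89848914-90089608), also lie on the minus strand. Of the 9 members, 5 start within 1000 bases of the start of a protein-coding gene on the opposite strand, as do 10.8% of the 21774 protein-coding genes of the RefSeq annotation. For Xrcc4 the partner is Tmem167 at 59 bases, for Brca1 it is Nbr1 at 152 bases, for Lig4 it is Abhd13 at 37 bases, for Prkdc it is Mcm4 at 44 bases, and for Atm it is Npat at 61 bases. The stretches between the paired starts of Xrcc4, Brca1 and Lig4 are shown because the first 2 genes had the largest rises and Lig4 is the partner of Xrcc4 in the ligation step. They are the bases just before each start, from chr13:90089609-90089666, chr11:101551956-101552106 and chr8:9977681-9977716, read 5′ to 3′ on the minus strand from RefSeq for GRCm38.p6, with matches to the motifs described next in capitals.
Xrcc4: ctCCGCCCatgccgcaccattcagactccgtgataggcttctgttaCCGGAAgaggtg
Brca1: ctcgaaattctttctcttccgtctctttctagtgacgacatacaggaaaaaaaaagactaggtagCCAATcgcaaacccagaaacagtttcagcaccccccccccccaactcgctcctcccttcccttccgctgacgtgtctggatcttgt
Lig4: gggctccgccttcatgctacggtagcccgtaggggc

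The motif search covered both strands of the 250 bases before 1 start per gene, the first that the RefSeq promoter table lists, which it gave for 8 of the 9 members (Prkdc was not matched). This start is the outermost start of the gene for Lig4, Xrcc4 and Brca1, lies 4 to 324 bases inside the gene's span for Xrcc5, Atm and Brca2, and lies 24947 bases inside it for Trp53bp1 and 28536 for Xrcc6, where it is another annotated start. A GC box (GGGCGG) was found in 4 of the 8 and in 32.9% of the 27025 promoters of the table, and a CCAAT box (CCAAT) in 3 of the 8 and in 34.5% of all. An ETS core (CCGGAA) was found in 3 of the 8, in Xrcc4, Brca1 and Lig4, and in 12.2% of all promoters. For these genes the 250 bases reach past the start of the partner gene. The matches in Brca1 (at -243 from the start) and Lig4 (at -159) lie past it. Xrcc4 had a match past it at -139 and another at -12, between the paired starts. The E2F half-site TTTNNCGC was found in Xrcc6 and Brca2 and in 4.39% of all promoters, the NRF1 half-site GCGCATGC in Lig4 and Atm and in 2.32%, and the cAMP response element TGACGTCA in Brca2 and in 1.62%. The Xrcc4 window had 26 CpG dinucleotides, the Trp53bp1 window 13 and the Brca1 window 12, against a median of 6 over all promoters. Over the 8 members the number ran from 5 in Xrcc5, the only one under that median, to 27 in Lig4. Matches of different motifs did not overlap. In the stretches shown, the capitals mark a GC box on the other strand and an ETS core in Xrcc4, and the CCAAT box in Brca1. A match is a match of letters only.

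Total counts per RNA-seq library ranged from 51003699 to 70533326, and counts are given below as CPM (counts scaled to a common library size, with edgeR's TMM factors). Levels of cell type markers differed between the bulk libraries of the groups. The summed level of 10 neuron markers was 7030 and 7857 CPM in sham, 2701 CPM in the 6-OHDA library and 6330 and 5572 CPM in 6-OHDA+NDST3. The summed level of 10 dopaminergic neuron markers was 983 and 958, 171, and 323 and 293 CPM, all 10 being lower in 6-OHDA than in sham at an adjusted p under 0.05. In the opposite direction, 9 microglia markers summed to 680 and 483, 4896, and 1712 and 2429 CPM, and 16 genes of cycling cells to 85.3 and 79.2, 279, and 103 and 123 CPM. Of the other lists, 6 of 7 monocyte or macrophage markers, 7 of 9 fibroblast or mural cell markers, 5 of 8 astrocyte markers, 5 of 8 endothelial markers, 4 of 7 B cell markers, 3 of 4 neutrophil markers, 2 of 7 innate lymphoid markers, 1 of 8 oligodendrocyte markers and 0 of 6 T cell markers were called higher in 6-OHDA. In these lists 3 markers were called lower, namely Aldoc among the astrocyte markers (log2 fold change -0.78), Pax5 among the B cell markers (-3.01) and Gata3 among the innate lymphoid markers (-2.92). In bulk tissue, fewer cells of a type and less RNA per cell cannot be told apart. The part of these shifts in the results on the repair genes was not tested.

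Per unit of transcript length (TPM, the deposited measure scaled for length and depth, mean of the 5 libraries), Trp53bp1 was the most abundant of the 9 at 32.9 TPM, followed by Xrcc5 at 18.8, Xrcc6 at 16.9, Xrcc4 at 10.8 and Lig4 at 7.76 TPM. Atm at 3.94 and Prkdc at 3.67 TPM lay lower, and Brca1 at 1.14 and Brca2 at 0.845 TPM were lowest. Several neighbours in this order overlapped. Xrcc5 ranged from 16.3 to 21.4 TPM and Xrcc6 from 15.3 to 18.8 TPM, Atm from 3.71 to 4.31 and Prkdc from 2.68 to 4.38 TPM, and Brca1 from 0.762 to 1.69 and Brca2 from 0.665 to 0.957 TPM. The order also differed in the 6-OHDA library, where Xrcc6 and Xrcc5 were both at 18.8 TPM, above Xrcc4 at 14.4 and Trp53bp1 at 14.1 TPM.

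**Figure D1:**
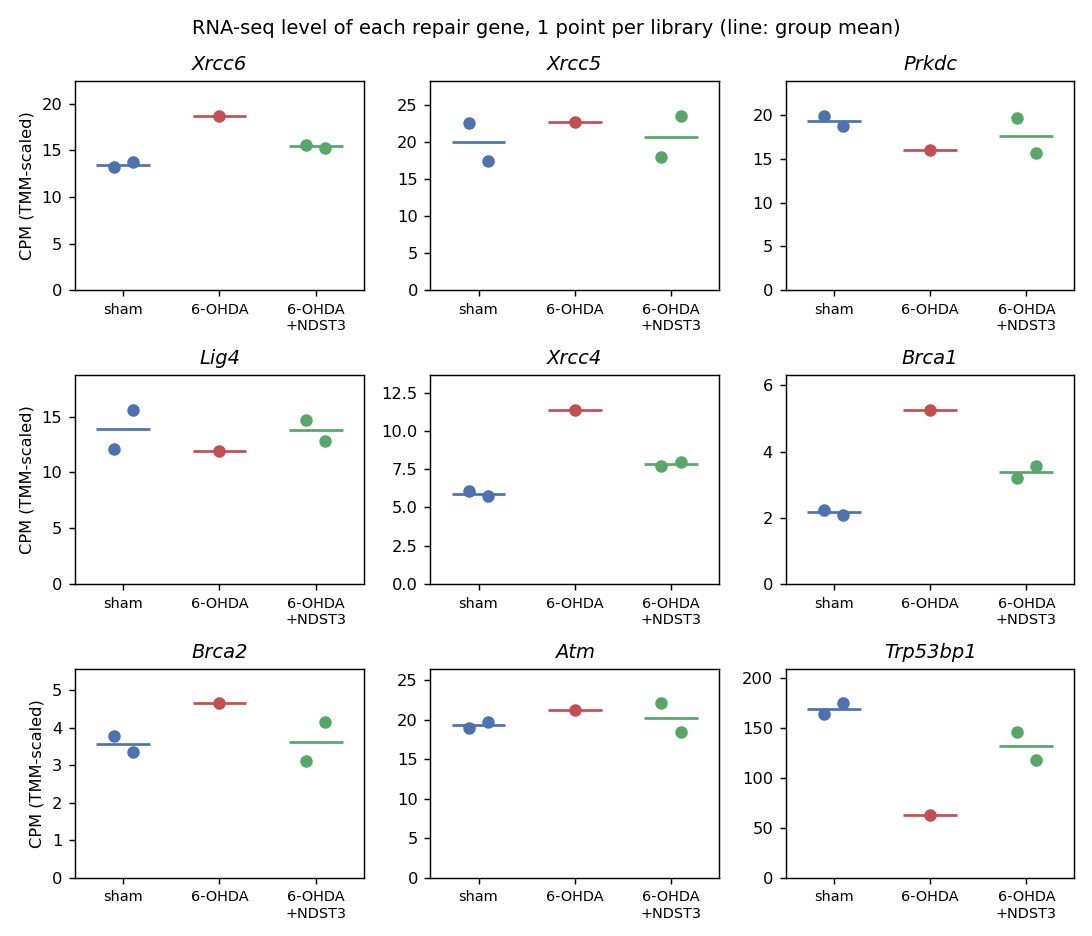
RNA-seq level of each of the 9 repair genes in CPM (y axes start at 0 and differ between panels), 1 point per library and a line at each group mean (n = 2 sham, 1 6-OHDA, 2 6-OHDA+NDST3). Trp53bp1 stood at 63.2 CPM in the 6-OHDA library against 117 to 174 CPM in the other 4, while Xrcc4 and Brca1 were highest in the 6-OHDA library.

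The first comparison asked how the repair genes differed between the lesioned and the sham brain. Of the 9, Xrcc4 and Brca1 were higher and Trp53bp1 was lower in 6-OHDA (3 of 9 called at an adjusted p under 0.05, by the quasi-likelihood F test of edgeR, adjusted by the Benjamini-Hochberg method over 19300 genes). That share stands beside 35.8% of all genes tested, with 18.8% higher and 17.1% lower. The median log2 fold change was 0.18 over the 9 and -0.0025 over all genes. With 1 library against 2, groups fail to overlap in 89.7% of genes, and they did so in 9 of the 9 members. Because 6-OHDA has 1 library only, every test against it takes its spread from the other groups.

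Trp53bp1 had 163 and 174 CPM in the sham libraries, 63.2 CPM in the 6-OHDA library, and 146 and 117 CPM in the 6-OHDA+NDST3 libraries. The lesion library was lowest, both sham libraries were highest, and no groups overlapped. The counts behind these levels were 8410, 12030, 3264, 8671 and 7001. Against sham (169 ± 7.75 CPM, SD, n = 2), Trp53bp1 fell by 1.42 on the log2 scale (SE, the standard error of the log2 fold change, 0.17, 95% interval -1.86 to -0.98, adjusted p = 0.00854 from edgeR), which is 2.67-fold lower, and 7.35% of all genes had a lower fold change. Without sham replicate 1 the log2 fold change was -1.46 (adjusted p = 0.0583 from edgeR), and without sham replicate 2 it was -1.37 (adjusted p = 0.0915). In both of these fits no gene of the 19300 was called, with 7451 and 6269 genes at an unadjusted p under 0.05. The neuron markers fell in the same library, all 10 of 10 being called, with a median log2 fold change of -1.39.

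Brca1 had 2.23 and 2.09 CPM in sham, 5.27 CPM in 6-OHDA, and 3.21 and 3.55 CPM in 6-OHDA+NDST3. The lesion library was highest and the sham libraries were lowest, with the treated libraries between them. These levels rest on 115 to 272 counts per library. Against sham (2.16 ± 0.104 CPM, SD, n = 2), Brca1 rose by 1.29 on the log2 scale (SE 0.26, 95% interval 0.62 to 1.95, adjusted p = 0.0196 from edgeR), which is 2.44-fold. The call was lost without sham replicate 1 (1.34, adjusted p = 0.0927 from edgeR) and without sham replicate 2 (1.24, adjusted p = 0.125). On the log2(FPKM + 1) scale, which understates the change of low genes, limma gave 0.42 (adjusted p = 0.0204).

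Xrcc4, the scaffold of the ligase, had 6.10 and 5.72 CPM in sham, 11.4 CPM in 6-OHDA, and 7.73 and 7.96 CPM in 6-OHDA+NDST3. As with Brca1, the lesion library was highest, the treated libraries lay between, and no groups overlapped. Xrcc4 rose by 0.95 on the log2 scale against sham (SE 0.18, 95% interval 0.49 to 1.40, adjusted p = 0.0168 from edgeR), which is 1.93-fold. Without sham replicate 1 the value was 0.99 (adjusted p = 0.0797 from edgeR) and without sham replicate 2 it was 0.90 (adjusted p = 0.114). Beside these rises, 15 of 16 cycling cell genes and 9 of 9 tested microglia markers were also called higher in the 6-OHDA library, with median log2 fold changes of 2.98 and 2.87.

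Lig4, the ligase itself, had 12.1 and 15.6 CPM in sham, 11.9 CPM in 6-OHDA, and 14.7 and 12.8 CPM in 6-OHDA+NDST3. The lesion library was lowest by a small margin, and the sham libraries differed from each other by more than sham replicate 1 differed from the lesion library. The log2 fold change in 6-OHDA against sham was -0.22 (SE 0.22, 95% interval -0.78 to 0.35, adjusted p = 0.474 from edgeR). The ratio of Lig4 to Xrcc4 in TPM was 0.802 and 1.13 in sham, 0.434 in 6-OHDA, and 0.766 and 0.666 in 6-OHDA+NDST3. It was lowest in the lesion library, which follows from the lowest Lig4 level and the highest Xrcc4 level being there. The difference between the fold changes of the 2 genes was not tested.

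Xrcc6, a subunit of the Ku ring, had 13.2 and 13.7 CPM in sham, 18.7 CPM in 6-OHDA, and 15.6 and 15.3 CPM in 6-OHDA+NDST3. Here too the lesion library was highest, with the treated libraries between it and sham. The log2 fold change of 0.47 (SE 0.14, 95% interval 0.12 to 0.82) did not pass the threshold in edgeR (adjusted p = 0.0514), and over the 11 alternatives the adjusted p ranged from 0.041 to 0.185, under 0.05 in 2. The other subunit, Xrcc5, had 22.6 and 17.5 CPM in sham, 22.7 CPM in 6-OHDA, and 17.9 and 23.5 CPM in 6-OHDA+NDST3. Within sham and within 6-OHDA+NDST3, its replicates differed by more than the group levels did. Those levels were 20.0 CPM in sham, 22.7 CPM in 6-OHDA and 20.7 CPM in 6-OHDA+NDST3. The log2 fold change in 6-OHDA against sham was 0.18 (SE 0.24, adjusted p = 0.592 from edgeR). The ratio of Xrcc6 to Xrcc5 in TPM lay between 0.728 and 1.05 in all 5 libraries, with 1.00 in the lesion library.

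The kinases Prkdc and Atm were not called. Prkdc had 19.9 and 18.7 CPM in sham, 16.0 CPM in 6-OHDA, and 19.7 and 15.6 CPM in 6-OHDA+NDST3, and Atm had 18.9 and 19.7, 21.2, and 22.0 and 18.4 CPM. For each of them the lesion library lay between the treated libraries. The log2 fold changes against sham were -0.28 for Prkdc (SE 0.19, adjusted p = 0.304 from edgeR) and 0.13 for Atm (SE 0.16, adjusted p = 0.56). The units disagreed for Prkdc in 6-OHDA+NDST3 replicate 2, which was the lowest library in CPM but the highest in deposited TPM at 4.38, against 2.68 to 3.85 TPM in the other 4.

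Brca2 had 3.77 and 3.36 CPM in sham, 4.65 CPM in 6-OHDA, and 3.11 and 4.16 CPM in 6-OHDA+NDST3. Its level was highest in the lesion library, and the treated libraries spanned both sham libraries. The log2 fold change in 6-OHDA against sham was 0.38 (SE 0.30, 95% interval -0.38 to 1.15, adjusted p = 0.356 from edgeR). So of the pair of recombination genes, Brca1 was called and Brca2 was not, and the difference between them was not tested. As a ratio of levels, Trp53bp1 to Brca1 in TPM was 50.6 and 57.7 in sham, 8.37 in 6-OHDA, and 31.4 and 22.8 in 6-OHDA+NDST3. The ratio was lowest in the lesion library and did not overlap between groups.

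**Figure D2:**
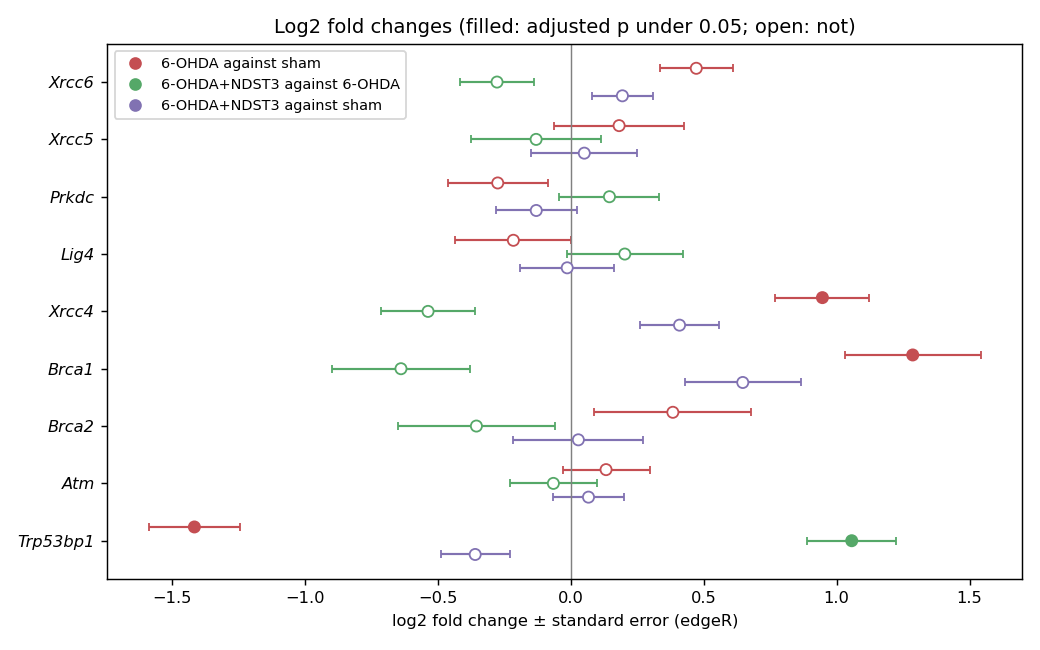
Log2 fold change of each of the 9 repair genes in the 3 comparisons (x axis, with bars of 1 SE from edgeR), filled where the adjusted p is under 0.05. The filled points are Xrcc4, Brca1 and Trp53bp1 in 6-OHDA against sham, and Trp53bp1 in 6-OHDA+NDST3 against 6-OHDA.

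The second comparison asked how the repair genes differed after NDST3 in the lesioned brain. It shares its 6-OHDA library with the first, so the 2 comparisons are not independent. Of the 9 genes, 1 was called, Trp53bp1, which was higher (15.6% of all genes tested were called, 9.06% higher). Trp53bp1 rose by 1.06 on the log2 scale (SE 0.17, 95% interval 0.62 to 1.49, adjusted p = 0.0344 from edgeR), which is 2.08-fold, to 131 ± 20.0 CPM (SD, n = 2). Both treated libraries were above the lesion library. Without 6-OHDA+NDST3 replicate 1 the log2 fold change was 0.89, and without sham replicate 1 or sham replicate 2 in turn it stayed at 1.06. The call was lost in each of these fits, as were nearly all calls over all genes. It was also lost with only the 2 groups compared (1.06, adjusted p = 0.116 from edgeR), where 0% of the 19300 genes were called. Neuron markers moved alongside, with 7 of 10 called higher and a median log2 fold change of 1.06.

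The other 8 members did not pass the threshold after NDST3. The values nearest to it were those of Xrcc4 (log2 fold change -0.54, SE 0.18, adjusted p = 0.0972 from edgeR) and Brca1 (-0.64, SE 0.26, adjusted p = 0.142). Both treated libraries were below the lesion library for Xrcc4, Brca1, Xrcc6 and Brca2. The remaining log2 fold changes ran from -0.36 for Brca2 to 0.20 for Lig4. The median over the 9 was -0.13, against 0.0029 over all genes, and the groups failed to overlap in 6 of 9 members and in 85.6% of genes. Of the cycling cell genes, 12 of 16 were called lower.

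The third comparison set 6-OHDA+NDST3 against sham, the only one with 2 libraries on each side. Of the 9 members, 0 were called by edgeR, as were 0% of the 19300 genes, and 0 members were called by DESeq2, which called 1023 genes. At an unadjusted p under 0.05 there were 3 members, Brca1, Xrcc4 and Trp53bp1, and 2744 genes (14.2%). Brca1 had a log2 fold change of 0.65 (SE 0.22, adjusted p = 0.304 from edgeR), Xrcc4 of 0.41 (SE 0.15, adjusted p = 0.329) and Trp53bp1 of -0.36 (SE 0.13, adjusted p = 0.325). Groups did not overlap for 4 of 9 members, namely these 3 and Xrcc6 (0.19), beside 48.9% of all genes. The other 5 members lay between -0.13 (Prkdc) and 0.07 (Atm).

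Over the 5 libraries, the order lesion above treated above sham was found in 3 of 9 members (Xrcc6, Xrcc4 and Brca1) and in 19.9% of genes. The reverse order was found in Trp53bp1 and in 14.9% of genes. The lesion library was the highest of all for 4 members and 38.9% of genes, and the lowest for 2 members and 37.9% of genes. Summed over the 5 end joining members, the level was 73.9 and 71.2 CPM in sham, 80.7 CPM in 6-OHDA, and 75.6 and 75.2 CPM in 6-OHDA+NDST3. The lesion library was highest in this sum, by less than 10 CPM over sham.

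A further 60 genes of the same pathways were read, 10 in end joining, 24 in break sensing and signalling, 20 in homologous recombination and 6 in alternative end joining, and all 60 passed the filter. In 6-OHDA against sham, 14 were called by edgeR, 9 higher and 5 lower (23.3%, beside the 35.8% of all genes given above). Their median log2 fold change was 0.37, with 44 above 0. By list the calls were 1 higher and 1 lower in end joining, 3 and 3 in break sensing, 4 and 1 in homologous recombination, and 1 and 0 in alternative end joining.

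The largest rises were in Rad54l, a motor protein of strand exchange, in Dna2, a nuclease that trims broken ends, and in Chek2, the checkpoint kinase that Atm activates. Rad54l had 1.01 and 0.681 CPM in sham, 4.16 CPM in 6-OHDA, and 1.16 and 1.37 CPM in 6-OHDA+NDST3. Dna2 had 1.16 and 0.956, 5.01, and 2.37 and 3.0 CPM, and Chek2 had 2.33 and 1.98, 8.46, and 3.98 and 5.13 CPM. In all 3 the lesion library stood above the other 4 by a wide margin, the treated libraries lay above sham, and no groups overlapped. The log2 fold changes were 2.30 for Rad54l (SE 0.38, adjusted p = 0.0125 from edgeR), 2.24 for Dna2 (SE 0.32, adjusted p = 0.00977) and 1.97 for Chek2 (SE 0.27, adjusted p = 0.00963).

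Trp53, the tumour suppressor p53 that both Atm and Chek2 phosphorylate, had 19.1 and 18.1 CPM in sham, 34.0 CPM in 6-OHDA, and 20.3 and 22.7 CPM in 6-OHDA+NDST3. Its level in the lesion library was above that of all other libraries (log2 fold change against sham 0.87, SE 0.14, adjusted p = 0.0118 from edgeR). Wrn, the helicase lost in Werner syndrome, had 8.87 and 7.94, 14.2, and 9.88 and 11.1 CPM (0.76, SE 0.18, adjusted p = 0.0297). Genes that fell included the ubiquitin ligase Rnf8, which marks chromatin at breaks for Trp53bp1, with 29.2 and 36.4, 19.5, and 33.1 and 27.6 CPM (-0.75, SE 0.20, adjusted p = 0.0437). The end-cleaning enzyme Aptx fell by 0.62 (SE 0.14, adjusted p = 0.0292). For both, the lesion library was the lowest. Among the other called genes, 6 changed by 0.47 to 0.60 in size on the log2 scale. Without sham replicate 1 or sham replicate 2 in turn, the calls of the 60 were lost, as were those over all genes.

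In 6-OHDA+NDST3 against 6-OHDA, 3 of the 60 were called, all lower (5% beside the 15.6% of all genes, 6.59% of them lower), with a median log2 fold change of -0.25 and 44 below 0. Rad54l fell by 1.72 (SE 0.37, adjusted p = 0.046 from edgeR) and Trp53 by 0.66 (SE 0.14, adjusted p = 0.0435). Atr, the kinase that answers to single-stranded DNA, had 14.7 and 12.8 CPM in sham, 19.6 CPM in 6-OHDA, and 12.3 and 12.1 CPM in 6-OHDA+NDST3, and fell by 0.68 (SE 0.16, adjusted p = 0.0491). For all 3 the lesion library stood above both treated libraries. These calls are close to the threshold. They were lost without sham replicate 1, sham replicate 2 or 6-OHDA+NDST3 replicate 1 in turn, together with nearly all calls over all genes. Against sham, 0 of the 60 were called in 6-OHDA+NDST3 by edgeR, with 3 at an unadjusted p under 0.05, and 2 by DESeq2.

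**Figure D3:**
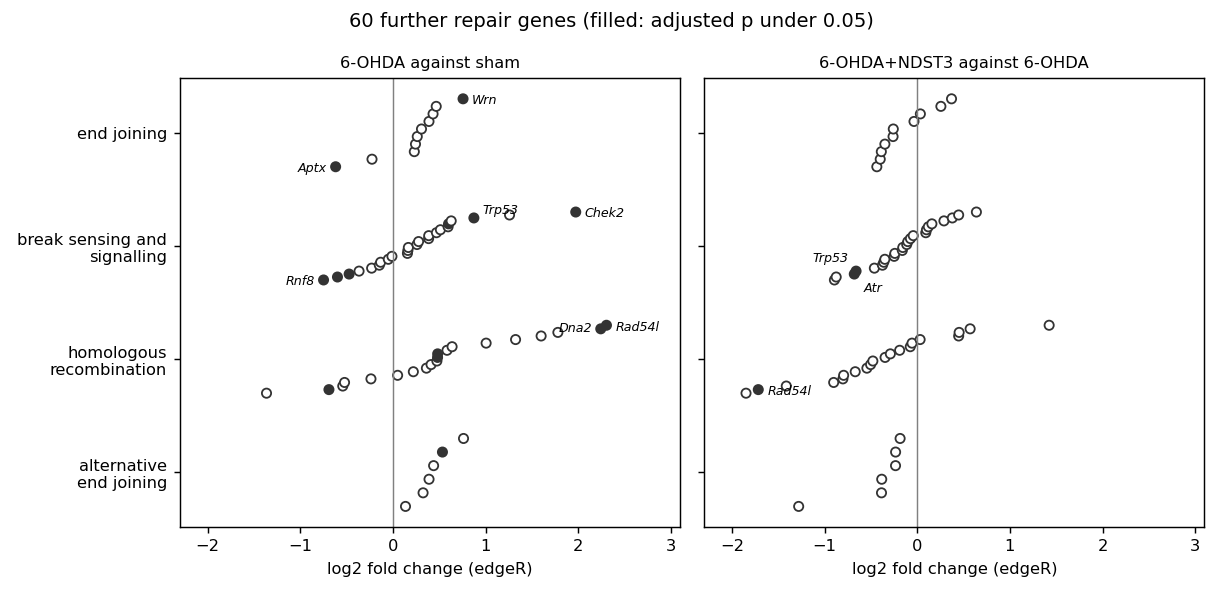
Log2 fold change from edgeR (x axis) of 60 further repair genes in 4 lists, 1 point per gene ordered by value within its list, for 6-OHDA against sham and 6-OHDA+NDST3 against 6-OHDA. Filled points passed an adjusted p of 0.05 (14 and 3 genes), and some of them are named.

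The genes that share a start region with a member gave a further set of values, chosen by position after the members' values were seen. The starts are 37 to 152 bases apart on opposite strands. Tmem167, beside Xrcc4, had 44.9 and 47.1 CPM in sham, 74.2 CPM in 6-OHDA, and 52.9 and 61.3 CPM in 6-OHDA+NDST3, with the lesion library highest as for Xrcc4 (log2 fold change 0.69, SE 0.13, adjusted p = 0.0163 from edgeR). Nbr1, an autophagy receptor beside Brca1, had 173 and 178, 163, and 173 and 182 CPM, and it was lowest rather than highest in the lesion library (-0.10, SE 0.10, adjusted p = 0.483). Mcm4, a subunit of the replicative helicase beside Prkdc, had 12.9 and 12.5, 22.9, and 15.4 and 14.1 CPM. It was highest in the lesion library (0.85, SE 0.14, adjusted p = 0.0131), where Prkdc was not. Neither Abhd13 beside Lig4 (0.15, adjusted p = 0.379) nor Npat beside Atm (0.26, adjusted p = 0.164) was called. After NDST3, Mcm4 fell by 0.64 (SE 0.14, adjusted p = 0.047 from edgeR) and the other 4 were not called.

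H3K27ac is an acetyl mark of active promoters and enhancers, and its table gave a signal at 9 regions of 4 members, each within 1000 bases of the gene's start. The signal is the authors' tag signal per group with an unstated normalization, ratios were taken after adding 1, and no test was possible. Of the 11424 regions, 96.3% had a higher signal in 6-OHDA+NDST3 than in 6-OHDA and 0% a lower one, so that a higher signal at all 9 member regions is what the table gives for nearly any gene. The median over all regions was 14.9 in sham, 16.4 in 6-OHDA and 22.9 in 6-OHDA+NDST3.

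Xrcc4 had the member region with the strongest signal in 6-OHDA and in 6-OHDA+NDST3, whereas in sham 5 of the other 8 regions were stronger. At 358 bases past its start the signal was 12.7 in sham, 31.3 in 6-OHDA and 58.2 in 6-OHDA+NDST3, which is 2.35 times sham in 6-OHDA and 4.31 times sham in 6-OHDA+NDST3. The value exceeded that of 39.9%, 89.4% and 97.3% of regions in the respective groups. A region of the same gene 589 bases past the start had 17.1, 13.4 and 18.4, so that neighbouring regions of 1 gene moved differently. In RNA-seq, Xrcc4 was higher in 6-OHDA+NDST3 than in sham by 0.41 on the log2 scale without passing the test.

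At Trp53bp1, the 2 stronger regions, 350 and 469 bases before the start, had 37.2, 27.9 and 40.7, and 30.7, 18.9 and 26.4, in sham, 6-OHDA and 6-OHDA+NDST3. Both were lower in 6-OHDA than in sham, at 0.755 and 0.629 times sham, as were 41.4% of all regions. The RNA was lower as well. Their higher signal in 6-OHDA+NDST3 than in 6-OHDA was shared by 96.3% of all regions. A weak region 84 bases before the start had 3.22, 3.95 and 6.58. At Brca2, the region 431 bases before the start had 7.59, 4.45 and 16.8, a ratio of 3.27 between 6-OHDA+NDST3 and 6-OHDA, and the region 41 bases before it had 8.54, 11.5 and 13.9. Prkdc had 13.3, 17.9 and 25.1 at 131 bases past its start, and 22.4, 12.7 and 14.2 at 302 bases.

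At 1.5-fold, 1 of the 9 regions was higher (22% of all regions) and 3 were lower (12.8%) in 6-OHDA than in sham. In 6-OHDA+NDST3 against 6-OHDA, 3 were higher (32.1%) and 0 lower (0%), and against sham 5 were higher (46.4%) and 1 lower (2.85%). With each column divided by its own median, 1 region was higher and 0 lower in 6-OHDA+NDST3 against 6-OHDA, the Brca2 region at a ratio of 2.42 (10.1% of all regions higher, 0% lower). On that scale 1 was higher (19%) and 2 were lower (18.5%) against sham, the higher one being the Xrcc4 region at 2.86. For 6-OHDA+NDST3, the number of regions past 1.5-fold thus rests in part on the scale of the columns. In 6-OHDA against sham it did not change, with 1 higher (16.6%) and 3 lower (17.6%).

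ATAC-seq, which marks accessible chromatin, listed 2 member regions among 3537 with 3 values. The Brca1 region, 443 bases past the start, had 114 in sham, 181 in 6-OHDA and 179 in 6-OHDA+NDST3, with 1 library per group. Its signal was 1.59 times sham in 6-OHDA and hardly differed between the lesioned groups (0.987 times). The Xrcc5 region, 376 bases before the start, had 15.6, 28.8 and 20.7, and was highest in 6-OHDA at 1.80 times sham. Both regions were at least 1.5-fold higher in 6-OHDA than in sham, as were 17.1% of regions, while 13.7% were lower. Neither passed 1.5-fold between 6-OHDA+NDST3 and 6-OHDA (14.3% of regions were higher and 9.39% lower), and against sham the Brca1 region did, at 1.57 (25.5% of regions were higher and 12.8% lower).

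**Figure D4:**
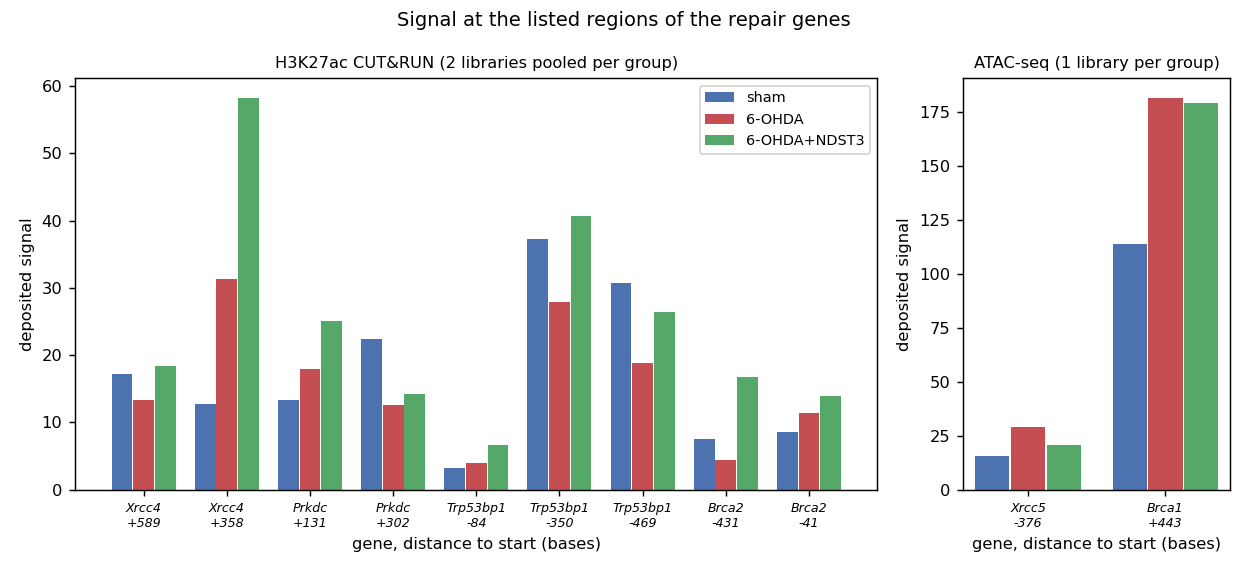
Deposited signal (y axis, bars from 0) at the 9 H3K27ac regions and 2 ATAC-seq regions of the repair genes, labelled by gene and distance from its start in bases, in sham, 6-OHDA and 6-OHDA+NDST3. The Xrcc4 region at +358 reached 58.2 in 6-OHDA+NDST3, and the 2 stronger Trp53bp1 regions were lower in 6-OHDA than in sham.

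In scRNA-seq, the table gave the mean of each gene in 9 clusters for 1 6-OHDA and 1 6-OHDA+NDST3 library, on the scale of the natural log of 1 plus the normalized count. From markers, cluster 4 was T cell-like, cluster 5 fibroblast or mural-like, cluster 6 microglia-like, cluster 7 endothelial-like and cluster 9 B cell-like. Clusters 1 (led by Il1b and Tyrobp), 2 (led by Dbi, Ckb and Magi2), 3 (led by Apoe and C1qa) and 8 (led by Skap1) were left without a name. Above 0.5 in both libraries, cluster 2 had 5 of 8 astrocyte markers, and cluster 1 had 4 of 7 neutrophil and 5 of 10 microglia markers. Cluster 3 had 7 of 10 microglia and 4 of 7 monocyte or macrophage markers. Cluster 8 had 7 of 10 T cell and 4 of 10 microglia markers. No cluster had more than 1 of 10 neuron markers above 0.5, and the summed neuron level was at most 0.89. No cluster of this table therefore stands for neurons.

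The repair genes were sparsely detected, as were most genes in each cluster. Above 0.1 in both libraries were 19.3% of all genes in cluster 1, the lowest share, and 32.6% in cluster 2, the highest. By the same rule, 1 of the 9 members was detected in cluster 1 and 6 in cluster 2. Of the 162 values (9 genes, 9 clusters and 2 libraries), 101 were at or under 0.1, and 6 of the 9 genes were above 0.1 in both libraries in at least 1 cluster, beside 42.5% of the 26646 genes. Xrcc4 was above 0.1 in 9 of 9 clusters, Prkdc in 7, Trp53bp1 in 4, Atm in 3, Xrcc5 in 2 and Xrcc6 in 1. Lig4, Brca1 and Brca2 reached 0.1 in 0 clusters, with highest means of 0.0355, 0.0359 and 0.0724.

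Xrcc4 was highest in cluster 2 (0.381 in 6-OHDA and 0.421 in 6-OHDA+NDST3) and next in the endothelial-like cluster 7 (0.314 and 0.277), and lowest in cluster 1 (0.126 and 0.111). Lig4, its partner, was at most 0.0355 and was listed at 0 in at least 1 library of 2 clusters. Trp53bp1 was also highest in cluster 2 (0.211 and 0.210), then in the T cell-like cluster 4 (0.170 and 0.164), and the microglia-like cluster 6 had 0.114 and 0.109. Prkdc was lowest in clusters 1 (0.102 and 0.0946) and 5 (0.106 and 0.0949) and highest in the 6-OHDA+NDST3 library of the B cell-like cluster 9 (0.256). Summed over the 9 genes, cluster 2 was first in both libraries (1.29 and 1.51) and cluster 1 was last (0.356 and 0.377). Cluster 2 was also where the largest share of all genes, 32.6%, was detected above 0.1 in both libraries, against 19.3% in cluster 1, so this order follows that of detection in general at its ends.

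Between the libraries, 0 of the 81 differences (9 genes in 9 clusters) reached 0.25 in size, beside 0.371% of all gene and cluster values. The largest was that of Prkdc in cluster 9, at 0.140 in 6-OHDA and 0.256 in 6-OHDA+NDST3. Lig4, Brca1 and Brca2, whose means stayed under 0.1, could not reach 0.25. Nor could Xrcc6, Atm and Trp53bp1, whose highest means were 0.172, 0.168 and 0.211. Xrcc5 and Prkdc, with highest means of 0.254 and 0.256, had hardly any room to reach it. By a ratio of back-transformed means of at least 1.5 in either direction, 16 of the 76 member values above 0 in both libraries passed (21.1%), beside 30.9% of all such gene and cluster values. There were 42 values higher with NDST3, 38 lower and 1 equal. For Trp53bp1 the differences ran from -0.02 to 0.04, and in the microglia-like cluster 6 it differed by -0.0049. With 1 library per group none of these differences was tested.

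**Figure D5:**
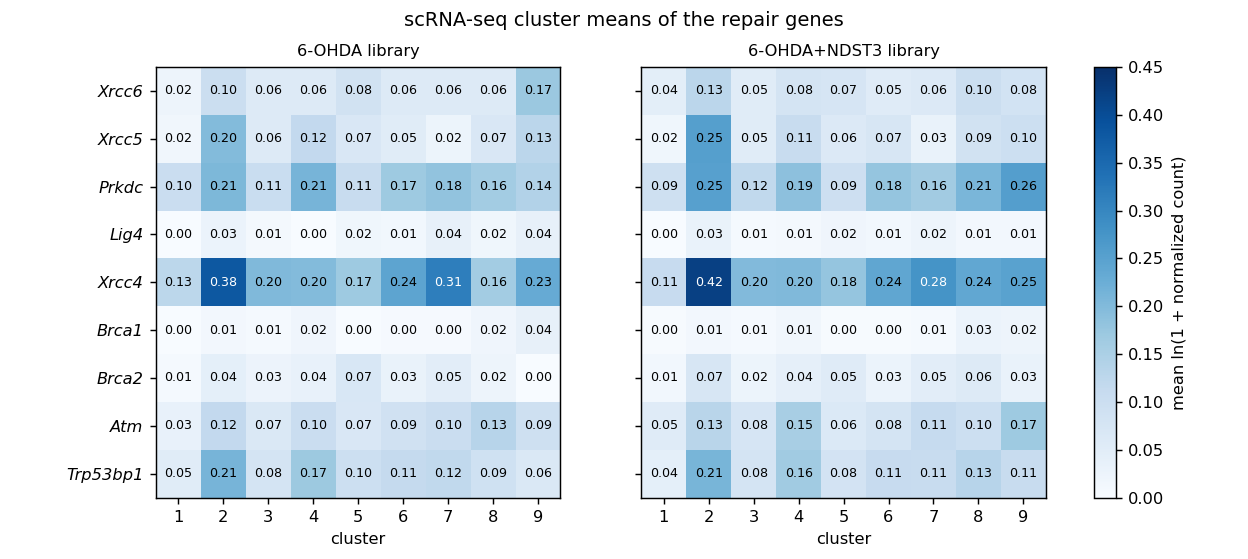
Mean of each repair gene (rows) in the 9 scRNA-seq clusters (columns) of the 6-OHDA and the 6-OHDA+NDST3 library, on a natural log scale (1 was added to the normalized count), with the value in each cell and darker colour for higher means. Xrcc4 was highest in cluster 2 of both libraries (0.381 and 0.421), and the rows of Lig4, Brca1 and Brca2 stayed under 0.1.

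Over the 18 cluster means (9 clusters in 2 libraries, which share their cells' depth and are not independent), the genes with the profile most like that of Xrcc4 were Cep57l1 (Pearson r = 0.967), Ttf1 (0.960) and Usf1 (0.948), among 12263 genes with a mean of at least 0.1 in a cluster. The profile of Trp53bp1 was nearest to those of Zfp280c (0.964), Ociad1 (0.927) and Sdf2 (0.917), and that of Xrcc5 to Cdk5rap2 (0.959). Prkdc was nearest to Patj (0.869) and Rad50 (0.858), Atm to Rbbp4 (0.912), and Xrcc6 to Zfp688 (0.945). For the sparsely detected genes, Lig4 was nearest to Mdc1 (0.916), Brca1 to Coil (0.953) and Brca2 to Actr8 (0.893). These are descriptions of likeness over few and sparse values.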

How the data were processed

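The mouse brain tables of bulk RNA-seq, H3K27ac, ATAC-seq and single cells were used. For RNA-seq, the authors ran Trimmomatic, then HISAT2 against mm10, then StringTie, and deposited a read count per gene with its FPKM and TPM. How the counts were made from StringTie's output and whether strand was used are not given in the sources used here. For CUT&RUN and ATAC-seq, the authors deposited a tag signal per region and group, whose normalization is not given in the sources used here. The deposited scRNA-seq cluster means were read as natural log values (1 added to the normalized count), although their header calls them mean counts. Against multiplets, the authors removed cells with very many detected genes; no doublet caller is given in the sources used here, and cluster means allow no further check. The region coordinates were not used: 3.44% of H3K27ac regions and 9.3% of ATAC-seq regions lay within 1500 bases of their gene's GRCm38 start.

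Counts were tested with edgeR 4.0.16 in R 4.3.3 (TMM factors, default filter, quasi-likelihood test, all 5 libraries, a mean per group), with Benjamini-Hochberg adjustment over 19300 genes and 2 residual degrees of freedom. The standard error is the log2 fold change divided by the square root of F. Alternatives were DESeq2 1.42.0, limma 3.58.1 on log2 FPKM with a pseudocount of 1 or of 0.1, RLE scaling, no filter, only the 2 groups compared, a replicate block, a fold rule (2-fold or more and an unadjusted p under 0.05), and each replicate left out in turn. Where that left a group with 1 library, it was assumed to vary like the others. The fit was tested on simulated data. Nothing says that replicates are separate animals, so p-values measure only the spread between these libraries, and depth covers counting error only. TPM was not tested.

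The members and gene lists were chosen with earlier results of these data known. The genes named are all members, up to 8 called genes per comparison from the wider lists, and the 3 genes whose cluster profile is most like each member's (1 to 3 are printed). A result that this rule covers is not reported here. Other calculations used Python 3.11.15, numpy 2.4.6 and pandas 2.3.3.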

Additional observations from a re-analysis of the deposited data

How the results depend on the processing

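Of 297 alternative values of the 9 members' log2 fold changes, 266 kept their direction and their side of the threshold, 13 lost a call, 2 gained one (Xrcc6, in limma) and 16 changed sign, none of them a called value. Most of the main values were not called and had no call to lose. In 6-OHDA against sham, Xrcc4 and Brca1 each kept the call in 8 of 11 alternatives and Trp53bp1 in 9. In 6-OHDA+NDST3 against 6-OHDA, Trp53bp1 kept it in 6 of 11.

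In 6-OHDA against sham, 3 members and 14 of the 60 further genes were called. Leaving out a replicate gave 0 to 3 members and 0 to 18 further genes, and the fold rule gave 8 further genes (beside 24.5% of all genes). In 6-OHDA+NDST3 against 6-OHDA, 1 member and 3 further genes were called. With only the 2 groups compared these were 0 and 0 (beside 0% of all genes). Leaving out sham replicate 1, sham replicate 2 or 6-OHDA+NDST3 replicate 1 took these calls away, together with nearly all calls over all genes. DESeq2 gave 8 further genes of the 60 (beside 29.8% of all genes), no filter on low counts 1 (13.8%) and the fold rule 5 (15.7%). In 6-OHDA+NDST3 against sham, 0 further genes became 2 with DESeq2 (6% of all genes) and 3 with the fold rule (5.86%).

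The sample labels do not tie equal replicate numbers of different groups together. The deviations of sham 1 and 6-OHDA+NDST3 1 from their group means had a correlation of -0.43 across genes. With 2 libraries per group, the deviations of replicate 2 mirror those of replicate 1. Sham 1 thus deviated in part together with 6-OHDA+NDST3 2, and the cause was not tested. With the replicate block, 1 member and 0 further genes were called in 6-OHDA against sham, 0 and 0 in 6-OHDA+NDST3 against 6-OHDA, and 0 and 0 against sham. Over all genes the shares called were 9.31%, 0% and 0%. A crossed pairing, added after seeing the data, gave 4, 1 and 0 members and 16, 8 and 2 further genes, beside 38.6%, 24.8% and 6.19% of all genes.

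All sign changes were in values near 0. Over the fits that each lacked 1 replicate, the log2 value in 6-OHDA+NDST3 against 6-OHDA ranged from -0.37 to 0.052 for Xrcc5, from -0.030 to 0.27 for Prkdc and from -0.20 to 0.028 for Atm. Against sham it ranged from -0.18 to 0.25 for Xrcc5, from -0.30 to 0.0036 for Prkdc, from -0.18 to 0.18 for Lig4, from -0.22 to 0.22 for Brca2 and from -0.070 to 0.17 for Atm. In limma on log2(FPKM + 1), Prkdc was 0.12 and Lig4 0.011 against sham, and on log2(FPKM + 0.1) Prkdc was 0.19, Lig4 0.016 and Brca2 -0.00037.

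With a ratio of back-transformed means of at least 1.5 in place of a difference of 0.25, 16 of the 81 scRNA-seq values passed in place of 0, a share below that of all genes. With columns divided by their median, H3K27ac regions past 1.5-fold fell from 3 to 1 in 6-OHDA+NDST3 against 6-OHDA and from 6 to 3 against sham, and ATAC-seq regions from 1 to 0 against sham. The cause of these changes was not tested. Brca1 and Brca2 rest on 115 to 272 counts per library, and the 6-OHDA group on 1 library, which limits every comparison with it.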
